A study of Mus musculus with 6 samples.

Results

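Peptide hormones and the receptors and carriers that answer them form part of the traffic between a fat depot, its vessels and its nerves. This account covers 10 such genes, all probe sets carrying their symbols in the platform annotation, in brown adipose tissue, the heat-producing fat depot. They are the peptide precursors Nmb, Nucb2, Nucb1, Edn1, Adm and Agt and the peptide receptors Ednra, Ednrb, Npr1 and Npr3. Of the 10 genes, 9 had a probe set, 12 probe sets in all among 22626, and the 9 stand among 12393 genes tested. No values for Ednra were analysed here.

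The tissue came from 2 groups of 3 arrays each. YY1bKO mice had floxed Yy1 alleles and carried Ucp1Cre, a Cre recombinase driven by the promoter of Ucp1, a gene of brown adipocytes. Control mice carried the floxed alleles (YY1flox/flox) without Cre. Mice of both groups were 3.5 months old, of a mixed C57BL6 and 129 background, and were given high fat food for 3 months. Cre from that promoter acts in brown adipocytes, so the vessel, nerve and immune cells of the depot keep the gene, and whole tissue was measured. Nothing in the labels says whether arrays are separate animals, so each p-value covers only the variation among these samples, and that variation may be technical.

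Neuromedin B, encoded by Nmb, is a bombesin-like peptide that acts at the receptor Nmbr and affects smooth muscle, feeding and body temperature. Nucleobindin 2, encoded by Nucb2, is a calcium-binding protein from which the appetite-suppressing peptide nesfatin is cut. Endothelin constricts vessels through one of its receptors and dilates them through endothelial cells carrying the other, adrenomedullin dilates vessels, angiotensinogen is the substrate of renin, and natriuretic peptides raise cGMP in adipocytes and vessels and drive lipolysis and heat production in fat.

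Yy1 encodes the zinc finger factor deleted in brown adipocytes, and its brightest probe set had log2 intensities of 8.38, 8.41 and 8.38 in YY1bKO arrays, against 9.90, 9.62 and 9.95 in control arrays. The groups did not overlap, and Yy1 fell 2.69-fold (limma adjusted p = 0.000854), while its other probe sets gave log2 fold changes of -1.71, -0.81 and -0.06. Pairs of arrays correlated across genes at 0.996 within YY1bKO, 0.978 to 0.996 within control and 0.976 to 0.985 between groups. Control replicate 2 stood apart. The 8 skeletal muscle marker genes had a mean log2 intensity of 12.28 to 12.65 in YY1bKO arrays, against 11.45, 13.81 and 11.11 in control replicates 1, 2 and 3. For each of the 9 genes the value without that array is given below. Without it, the log2 fold changes of the genes Ece2, Ackr3, Atp6ap2, Kng1 and Pcsk6 described below were 0.48, -1.20, 0.63, -1.56 and -0.97. Those of Furin and Pam, also described below, were -0.41 and -0.50. All of these stayed called, while Prkg2 lost its call (0.46, limma adjusted p = 0.0644). The control arrays that remain then, at 11.45 and 11.11, lie below all YY1bKO arrays in the muscle markers. That omission therefore leaves the groups unlike in muscle signal, whose part in any value was not tested. The brown adipocyte markers averaged 11.92 to 12.12 in YY1bKO arrays and 11.79 to 12.13 in control arrays, an average over members that went both ways. Elovl3, a fatty acid elongase, and Ppargc1a, a coactivator of mitochondrial genes, rose by 1.14 and 1.09 on the log2 scale (limma adjusted p = 0.0396 and 0.00356), and the other 6 markers were not called, with negative values from -0.06 for Fabp4 to -0.87 for Dio2.

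Of the 9 measured genes, 2 rose (Nmb and Nucb2), 1 fell (Npr1) and 6 were not called at an adjusted p under 0.05. That is 22.2% higher and 11.1% lower, beside 10.2% higher and 8.09% lower among all genes tested. The 3 called genes were also the 3 whose groups did not overlap, a property of 38.5% of all genes. The median log2 fold change of the 9 genes was -0.09, against 0.04 over all genes, and the median size without sign was 0.46 against 0.18. The genes were chosen with earlier results of these data known. These shares and medians therefore describe the 9 genes and cannot show that the set responds unusually. In the fit over all probe sets, 2 of the 12 probe sets were called higher and 1 lower, beside 8.83% and 7.16% of all probe sets. Of the 9 genes, 5 had a brightest probe set above 6.48 on the log2 scale, the median over probe sets,, and Edn1, Npr1, Adm and Agt lay at or below it.

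**Figure D1:**
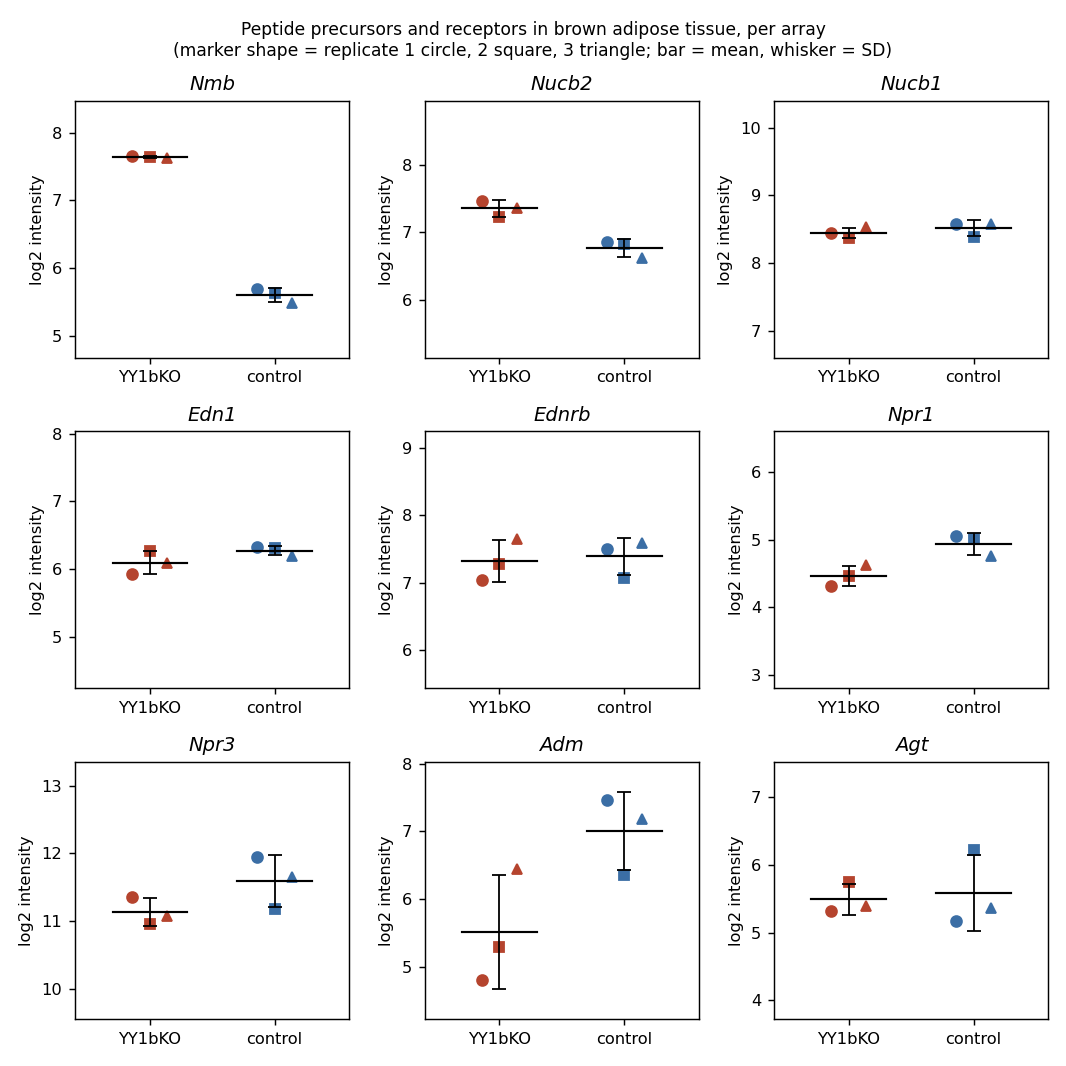
Log2 intensity of the brightest probe set of each of the 9 measured genes, with 3 YY1bKO arrays (red) left and 3 control arrays (blue) right, the mean as a bar and the SD as a whisker, every panel spanning the same log2 range. Nmb and Nucb2 lie higher and Npr1 lower in every YY1bKO array, while the Adm groups overlap through YY1bKO replicate 3 and control replicate 2.

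The 3 genes that passed the test, Nmb, Nucb2 and Npr1, are shown with the 250 bases before their transcription start, because the factor deleted here binds DNA around a CCAT core. Sequences are from RefSeq (GRCm38.p6), 5′ to 3′ on the strand of the gene, and capitals mark CCAT or its complement ATGG.
Nmb (chr7:80905063-80905312, minus strand): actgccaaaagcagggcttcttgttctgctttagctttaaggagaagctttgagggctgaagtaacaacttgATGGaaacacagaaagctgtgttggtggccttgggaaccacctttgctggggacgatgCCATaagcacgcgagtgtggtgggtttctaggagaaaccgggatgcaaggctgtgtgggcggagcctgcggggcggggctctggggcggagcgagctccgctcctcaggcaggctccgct
Nucb2 (chr7:116504119-116504368, plus strand): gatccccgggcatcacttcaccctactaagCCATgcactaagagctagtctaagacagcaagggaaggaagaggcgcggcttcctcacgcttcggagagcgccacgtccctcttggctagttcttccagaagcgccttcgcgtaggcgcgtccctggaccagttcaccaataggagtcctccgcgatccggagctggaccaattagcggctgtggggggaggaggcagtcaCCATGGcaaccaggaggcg
Npr1 (chr3:90465867-90466116, minus strand): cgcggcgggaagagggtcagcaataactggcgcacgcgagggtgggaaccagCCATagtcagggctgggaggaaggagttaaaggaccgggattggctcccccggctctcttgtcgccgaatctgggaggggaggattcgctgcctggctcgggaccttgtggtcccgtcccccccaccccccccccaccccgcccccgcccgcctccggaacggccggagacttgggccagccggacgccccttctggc

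The core occurs 2 times in the Nmb window, 3 times in that of Nucb2 (CCAT and ATGG overlap in 1 run near its start site) and 1 time in that of Npr1. These letters are common. At least 1 copy on either strand occurs in 83.1% of the 32851 windows of 300 bases (250 before and 50 after a start) in the table, with a median of 2 copies per window. Longer forms of the YY1 consensus, CCATNTT and ATGGCGG, were searched on both strands of the same windows. The complement of the first can overlap the second. CCATNTT occurs in 16.08% of all windows and ATGGCGG in 4.05%, and either in 18.42%. Among the 10 genes, 1 window held either form, that of Agt, with CCATCTT at bases -131 to -125 from the start. Agt was not called. A match describes letters and not a binding site, and a window with no match says only that these letters are not in it.

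Among the precursors, Nmb was the clearest case. Its probe set had linear intensities of 202, 200 and 197 in YY1bKO arrays, against 51.5, 49.4 and 44.9 in control arrays, or log2 intensities of 7.66, 7.65 and 7.62 against 5.69, 5.63 and 5.49. All 3 YY1bKO arrays lay above all 3 control arrays, and the spread within either group was small beside the gap. The mean log2 intensity was 7.64 ± 0.02 in YY1bKO tissue and 5.60 ± 0.10 in control tissue (SD, n = 3 each). The fold was 4.11, with a 95% interval of 3.60 to 4.70 (limma adjusted p = 0.000306), which placed Nmb at rank 2 of 12393 genes by p and rank 12 by log2 fold change. On the log2 scale, 6.48 is the median probe set, so Nmb was dim in control tissue and above that median in YY1bKO tissue. Without control replicate 2 the log2 fold change was 2.05 (adjusted p = 0.000209), and over all 6 omissions of 1 array it ran from 1.98 to 2.08, called each time. Nmb is also a neuropeptide gene, and the 4 measured Schwann and nerve markers averaged 5.93 to 6.09 in YY1bKO arrays and 5.74 to 5.77 in control arrays, without overlap (exact permutation test, two-sided p = 0.1). Their log2 fold changes were 0.16 to 0.39, and limma called 0 of them. At an unadjusted p under 0.05, 2 were higher, a threshold at which all genes were not counted. Of these markers, Th and Prph were dim. The part of the nerve markers in the Nmb values was not tested.

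Nmb sits between Zscan2 and Sec11a among the measured genes of its chromosome, a comparison added after the data had been seen. Zscan2, a zinc finger gene, had a mean log2 intensity of 4.18 in YY1bKO and 4.20 in control tissue and was not called (log2 fold change -0.02 ± 0.09, SE, adjusted p = 0.908). Sec11a, a subunit of the signal peptidase that trims secreted proteins, rose by 0.35 ± 0.07 on the log2 scale (adjusted p = 0.0178), well under the change of Nmb. The genes whose 6-array profiles lay closest to that of Nmb, after centring each on its control mean, were Ephx1, Cacnb4 and Aaas, at root mean square differences of 0.14, 0.15 and 0.16 on the log2 scale. Their log2 fold changes were 1.91, 2.03 and 1.84, which lie near that of Nmb because the genes were picked by this closeness. This likeness is a description over 6 arrays.

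Nucb2 had log2 intensities of 7.47, 7.23 and 7.36 in YY1bKO arrays, against 6.85, 6.83 and 6.62 in control arrays. Every YY1bKO value exceeded every control value, and the smallest gap was between YY1bKO replicate 2 and control replicate 1. The means were 7.35 ± 0.12 in YY1bKO tissue and 6.77 ± 0.13 in control tissue (SD, n = 3 each), a 1.50-fold rise with a 95% interval of 1.26 to 1.78 (limma adjusted p = 0.0123). The call was lost without YY1bKO replicate 1 (log2 fold change 0.53, adjusted p = 0.0518) or YY1bKO replicate 3 (0.58, adjusted p = 0.0525), and it held without control replicate 2 (0.62, adjusted p = 0.0101). The closest profiles over the 6 arrays were those of Tmed3, Cklf and Snrpg, at root mean square differences of 0.04, 0.05 and 0.06. Their log2 fold changes were 0.59, 0.58 and 0.62, which lie near that of Nucb2 because the genes were picked by this closeness. The nearest measured genes on either side of Nucb2 were Pik3c2a (0.30 ± 0.13, SE, adjusted p = 0.175) and Syt17 (0.07 ± 0.11, adjusted p = 0.726), and neither was called.

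Nucb1 encodes nucleobindin 1, the close relative of nucleobindin 2 that resides in the Golgi. Its log2 intensities were 8.43, 8.37 and 8.53 in YY1bKO arrays, against 8.58, 8.38 and 8.58 in control arrays, and the groups overlapped. It changed by -0.07 on the log2 scale, with a 95% interval of -0.29 to 0.15 (limma adjusted p = 0.661), and it was -0.14 without control replicate 2 (adjusted p = 0.295). The interval of Nucb1 ends below that of Nucb2, which runs from 0.34 to 0.83, and the difference between the genes was not tested.

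Adm, the adrenomedullin precursor, had the lowest fold change and the widest spread of the 9 genes. Its log2 intensities were 4.81, 5.29 and 6.44 in YY1bKO arrays, against 7.47, 6.36 and 7.19 in control arrays. YY1bKO replicate 3 lay just above control replicate 2, and otherwise the YY1bKO values were lower. The mean was 5.51 ± 0.84 in YY1bKO tissue and 7.0 ± 0.58 in control tissue (SD, n = 3 each). Adm had a log2 fold change of -1.49, with a 95% interval of -2.59 to -0.40, and the gene was not called (limma unadjusted p = 0.0148, adjusted p = 0.0693). It was called lower without YY1bKO replicate 3 (-1.96, adjusted p = 0.0347), without control replicate 2 (-1.82, adjusted p = 0.0255) and with array weights (-1.75, adjusted p = 0.0259). Over all alternatives its adjusted p ran from 0.0255 to 0.195 and the sign stayed negative.

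Edn1, the endothelin precursor made mainly by endothelial cells, had log2 intensities of 5.93, 6.26 and 6.09 in YY1bKO arrays, against 6.32, 6.31 and 6.19 in control arrays. The groups overlapped through YY1bKO replicate 2. Its log2 fold change was -0.18, with a 95% interval of -0.43 to 0.07 (limma adjusted p = 0.297). It was -0.16 without control replicate 2 (adjusted p = 0.367) and -0.10 without YY1bKO replicate 1 (adjusted p = 0.612). Agt, angiotensinogen, had log2 intensities of 5.33, 5.75 and 5.40 in YY1bKO arrays, against 5.17, 6.23 and 5.36 in control arrays. Control replicate 2 was the highest of the 6 and the other control arrays lay near or below the YY1bKO arrays. The log2 fold change of Agt was -0.09, with a 95% interval of -0.76 to 0.57 (limma adjusted p = 0.857), and it was 0.23 without control replicate 2 (adjusted p = 0.305), so not even its sign is settled.

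Among the receptors, Npr1 was the single called gene. It encodes the guanylyl cyclase receptor for atrial and brain natriuretic peptides. Its log2 intensities were 4.31, 4.46 and 4.62 in YY1bKO arrays, against 5.05, 5.01 and 4.76 in control arrays. The groups did not overlap, although YY1bKO replicate 3 and control replicate 3 lay close. Means were 4.46 ± 0.15 in YY1bKO tissue and 4.94 ± 0.16 in control tissue (SD, n = 3 each). Npr1 fell by 0.47 on the log2 scale, with a 95% interval of -0.76 to -0.19 (limma adjusted p = 0.0369). The mean level of this probe set exceeded that of only 27.8% of probe sets. The call was lost when YY1bKO replicate 1, 2 or 3 was left out (adjusted p = 0.119, 0.115 and 0.0564) and when control replicate 1 or 2 was left out (0.115 and 0.0513, with a log2 fold change of -0.44 without replicate 2), and held without control replicate 3 (0.0318). With 16 added to each intensity before the log2, the change was -0.29 (adjusted p = 0.0465).

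Npr3 encodes the natriuretic peptide clearance receptor, which binds and removes the same peptides. Its brightest probe set had log2 intensities of 11.36, 10.96 and 11.08 in YY1bKO arrays, against 11.95, 11.18 and 11.65 in control arrays, and the groups overlapped through control replicate 2. Its log2 fold change was -0.46, with a 95% interval of -0.95 to 0.03 (limma adjusted p = 0.181). It was -0.66 and called without control replicate 2 (adjusted p = 0.0203), and -0.64 and called with array weights (adjusted p = 0.0289). It was smaller and not called without control replicate 1 (-0.28, adjusted p = 0.401), without YY1bKO replicate 2 (-0.37, adjusted p = 0.409) and when its probe sets were averaged (-0.36, adjusted p = 0.388). The other probe sets of Npr3 gave -0.52 (adjusted p = 0.257) and -0.10 (adjusted p = 0.861) in the fit over all probe sets. Control replicate 2 had the lowest control value in all 3 Npr3 probe sets, and in the dimmest of them its value, 7.60, lay below all 3 YY1bKO arrays.

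Ednrb, the endothelin receptor that binds all endothelins alike, had log2 intensities of 7.04, 7.28 and 7.65 in YY1bKO arrays, against 7.51, 7.08 and 7.59 in control arrays. The groups overlapped over nearly their whole range. The log2 fold change of its brighter probe set was -0.07, with a 95% interval of -0.54 to 0.39 (limma adjusted p = 0.841), and its dimmer probe set gave 0.07 (adjusted p = 0.763). The brighter probe set gave -0.23 without YY1bKO replicate 3 (adjusted p = 0.485), -0.23 without control replicate 2 (adjusted p = 0.387) and 0.07 without YY1bKO replicate 1 (adjusted p = 0.869).

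**Figure D2:**
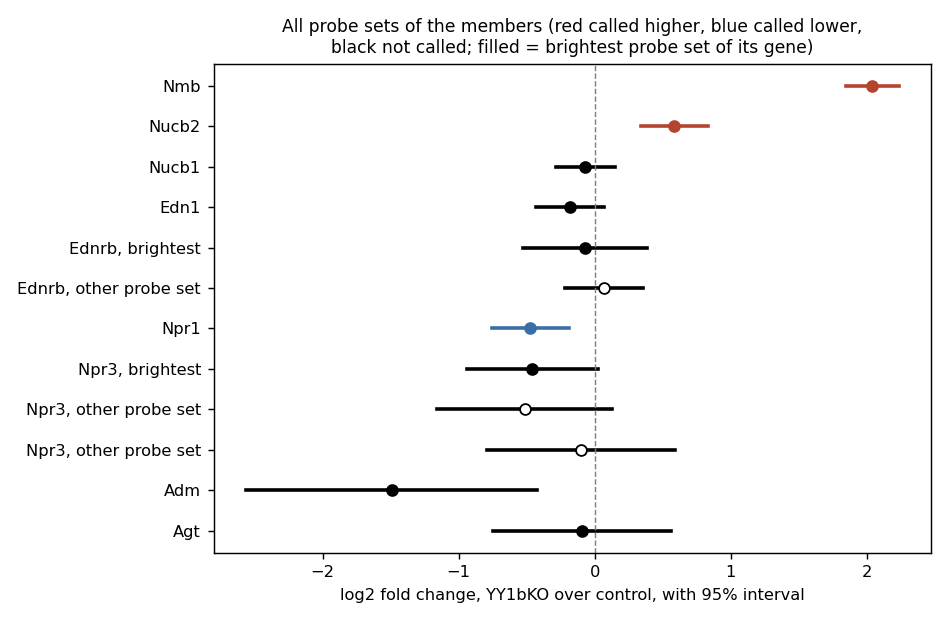
Log2 fold change of YY1bKO over control (horizontal axis) with its 95% interval for all 12 probe sets of the 9 genes, with filled points for the brightest probe set of each gene, from the fit over all probe sets. The intervals of Nmb and Nucb2 lie right of 0 and those of Npr1 and Adm left of 0, of which Adm did not pass after adjustment.

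**Figure D3:**
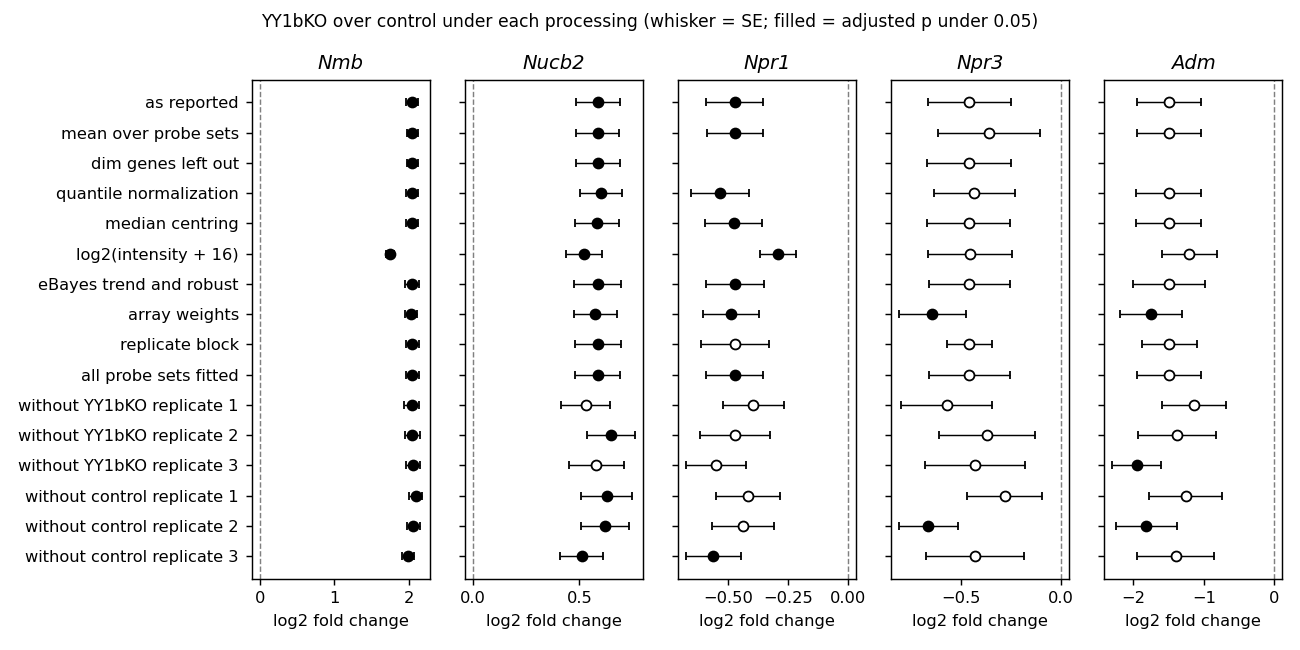
Log2 fold change of YY1bKO over control with its SE for Nmb, Nucb2, Npr1, Npr3 and Adm, as reported (top) and under each alternative that keeps the gene, filled where the adjusted p was under 0.05. Nmb was called in every alternative shown, of which the omission of dim genes is no support because Nmb passes it only through its YY1bKO arrays. Nucb2 was called in 13 of 15. Whether Npr1, Npr3 and Adm were called changed with the array left out, and their log2 fold changes stayed negative.

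Endothelial markers and part of the pericyte markers differed between the groups as well. Of 11 endothelial marker genes measured, 5 fell (Cdh5, Kdr, Tek, Cldn5 and Egfl7) and 0 rose. That is 45.5% lower, beside 8.09% of all genes tested. All 11 had a negative log2 fold change, with a median of -0.53. At an unadjusted p under 0.05, 9 were lower and 0 higher, a threshold at which all genes were not counted. Their mean log2 intensity was 7.98 to 8.15 in YY1bKO arrays and 8.50 to 8.78 in control arrays, without overlap (exact permutation test, two-sided p = 0.1, which no design of this size can go below). Tie1 alone of the 11 lay in the dim range. Of 9 pericyte and smooth muscle markers, the pericyte genes Pdgfrb, Rgs5 and Cspg4 fell and 0 rose, which is 33.3% lower beside the same 8.09%. A further gene of the pericyte kind, Mcam, gave -0.66 without overlap and was not called (limma adjusted p = 0.0632). The contractile genes Acta2, Tagln, Myh11 and Cnn1 gave 0.20, 0.38, 0.33 and 0.49 and were not called, Cnn1 with an adjusted p of 0.0548 and groups that did not overlap. The pericyte and smooth muscle list averaged 8.35 to 8.47 in YY1bKO arrays and 8.23 to 8.91 in control arrays, with overlap (exact permutation test, two-sided p = 0.6). Of its genes, 5 had a positive and 4 a negative log2 fold change, Des being among the positive ones (0.17, not called). In whole tissue, fewer cells of a type and less RNA per cell cannot be told apart, and the part of these markers in the values of Adm, Npr1, Npr3 and Edn1 was not tested. Without control replicate 2, the array with high muscle markers, Adm and Npr3 were the genes that gained a call and Npr1 the gene that lost it, as given above. In that fit all YY1bKO arrays exceed the remaining control arrays in muscle markers, and the part of muscle signal in these calls was not tested.

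**Figure D4:**
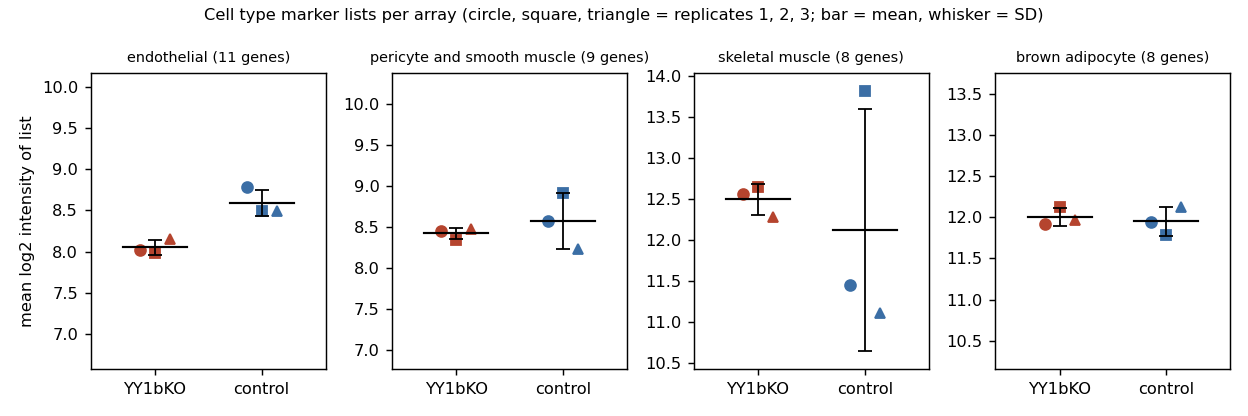
Mean log2 intensity of 4 marker lists in each array, YY1bKO (red) left of control (blue), with the group mean as a bar and the SD as a whisker. The endothelial means are lower in all 3 YY1bKO arrays, and control replicate 2 (square) has the highest skeletal muscle mean.

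The other genes of these peptide systems were taken from 8 lists with 81 genes, of which 70 were measured, 46 of them in the dim range. Of the 70 genes, 3 rose (Ece2, Prkg2 and Atp6ap2) and 5 fell (Ackr3, Kng1, Pcsk6, Furin and Pam). That is 4.29% higher and 7.14% lower, beside 10.2% and 8.09% of all genes, so the lower share was near that of all genes. The median log2 fold change was 0.00. With dim genes left out, 2 of the 24 list genes that remained were called higher and 4 lower. The shares of all genes in that fit were 16.2% and 14.0%. Many of these genes encode peptides and receptors of nerve or gut whose probe sets are dim here.

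In the bombesin list, limma called 0 of 4 genes, and 0 had an unadjusted p under 0.05. The receptor gene Nmbr had log2 intensities of 5.54, 5.40 and 5.31 in YY1bKO arrays, against 5.18, 5.43 and 5.53 in control arrays, with a log2 fold change of 0.03 (limma adjusted p = 0.876). It lay in the dim range, as did Grp, Grpr and Brs3, so a change of the receptors could be understated.

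In the endothelin list, 1 of 6 genes rose. Ece2, a metalloprotease related to the endothelin-converting enzyme, had log2 intensities of 7.59, 7.76 and 7.63 in YY1bKO arrays, against 7.15, 7.01 and 7.20 in control arrays, without overlap. Its log2 fold change was 0.54 ± 0.09 (SE, limma adjusted p = 0.00947). Averaging its probe sets gave 0.39 (adjusted p = 0.037). Ece1, the main converting enzyme of endothelin, gave -0.05 (adjusted p = 0.69).

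In the natriuretic peptide list, 1 of 7 genes fell. This was Furin, a protease that cuts many precursors, with -0.36 ± 0.09 (SE, limma adjusted p = 0.0342), and leaving out any array but control replicate 2 ended the call (adjusted p = 0.0721 to 0.117). The guanylyl cyclase receptor gene Npr2 gave -0.26 (adjusted p = 0.15). Mme, which encodes the peptide-degrading enzyme neprilysin, had 10.66, 10.13 and 10.73 in YY1bKO arrays, against 11.17, 10.84 and 11.15 in control arrays, and was not called (log2 fold change -0.55, adjusted p = 0.085). Downstream, 1 of 8 cGMP signalling genes rose. This was Prkg2, a cGMP-dependent kinase gene, with 0.48 ± 0.13 at dim intensities (adjusted p = 0.0488). Leaving out any array ended that call (adjusted p = 0.0596 to 0.117), and so did each change of scaling or probe set rule. The brighter kinase gene Prkg1 gave 0.17 (adjusted p = 0.873), with 7.97 in control replicate 2 against 5.92 and 5.83 in control replicates 1 and 3. The soluble guanylyl cyclase gene Gucy1b1 gave -0.57 (adjusted p = 0.0831) and the endothelial nitric oxide synthase gene Nos3 0.06 (adjusted p = 0.802).

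In the adrenomedullin list, 1 of 7 genes fell. Ackr3, a scavenger receptor that binds adrenomedullin as well as chemokines, had log2 intensities of 9.88, 9.57 and 9.16 in YY1bKO arrays, against 10.62, 11.10 and 10.86 in control arrays. All YY1bKO values were lower. The log2 fold change was -1.32 ± 0.20 (SE, limma adjusted p = 0.00823), and Ackr3 stayed called in all 15 alternatives. Calcrl, the receptor through which adrenomedullin signals, gave -0.43 (adjusted p = 0.143) and its partner Ramp2 gave -0.32 (adjusted p = 0.226). Ramp1, an alternative partner, had 7.52 to 7.91 in YY1bKO arrays, against 6.99, 9.66 and 6.58 in control replicates 1, 2 and 3, so that the control range spans the YY1bKO values.

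In the renin-angiotensin list, 1 of 7 genes rose. Atp6ap2, the prorenin receptor and an accessory subunit of the vacuolar proton pump, had 11.11, 11.16 and 11.19 in YY1bKO arrays, against 10.51, 10.40 and 10.54 in control arrays, without overlap. The log2 fold change was 0.67 ± 0.08 (SE, limma adjusted p = 0.00336). Ace, the angiotensin-converting enzyme, gave -0.03 (adjusted p = 0.839). Agtr1a was not analysed here.

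Of 20 genes for other vasoactive peptides and receptors, 17 of them in the dim range, 1 fell. Kng1, the kininogen from which bradykinin is cut, had log2 intensities of 8.65, 8.79 and 9.04 in YY1bKO arrays, against 10.41, 9.99 and 10.37 in control arrays. The log2 fold change was -1.43 ± 0.15 (SE, limma adjusted p = 0.0026). Averaging its probe sets gave -1.19. The mouse genome holds a near-identical kininogen gene, Kng2, so the probe set may read either. The bradykinin receptor genes Bdkrb1 and Bdkrb2 gave -0.02 and 0.19 and were not called (adjusted p = 0.905 and 0.257). Apln, the vasoactive peptide apelin, gave -0.52 (adjusted p = 0.0912).

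Of 11 genes for prohormone processing, 2 fell. Pcsk6, a proprotein convertase, had log2 intensities of 7.64, 7.74 and 7.93 in YY1bKO arrays, against 8.69, 8.66 and 8.79 in control arrays, a log2 fold change of -0.94 ± 0.10 (SE, limma adjusted p = 0.00249). Pam, which amidates the C-terminus of peptides such as neuromedin B and adrenomedullin, had 5.97, 6.06 and 5.91 in YY1bKO arrays, against 6.66, 6.54 and 6.30 in control arrays. Pam fell by 0.52 on the log2 scale (adjusted p = 0.0214), and the call was lost without YY1bKO replicate 1, 2 or 3 or control replicate 1 (adjusted p = 0.0606 to 0.0847). Cpe, a carboxypeptidase of the same route, had 8.24 to 8.66 in YY1bKO arrays, against 8.35, 10.42 and 7.87 in control replicates 1, 2 and 3, again highest in the array with high muscle markers.

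**Figure D5:**
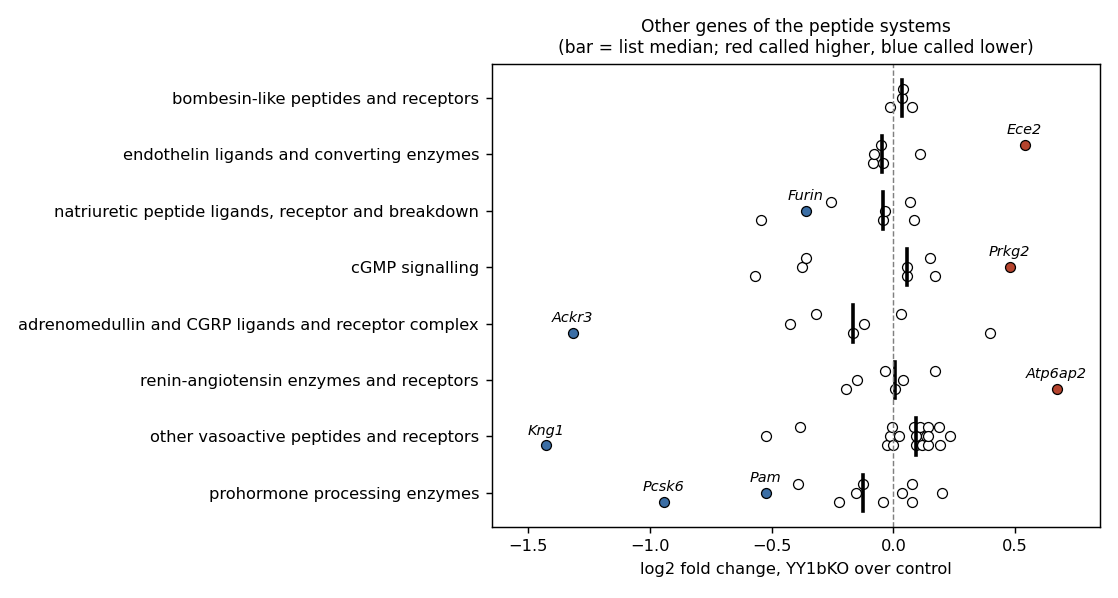
Log2 fold change of YY1bKO over control (horizontal axis) for the 70 other measured genes in 8 lists, with the list median as a bar and called genes filled and named. The 8 called genes are in 7 of the 8 lists, and most points lie near 0.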

How the data were processed

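Brown adipose RNA from 3 YY1bKO and 3 control samples, 6 ug each, was extracted with Trizol and hybridised to Affymetrix arrays, per the labels' protocols. The authors deposited a linear intensity for each of 22690 probe sets, made with RMA per the submitters' processing notes. Which RMA version was run is not given in these sources. The intensities, 4.91 to 21219, were taken as back-transformed. RMA makes the distributions of single probes equal between arrays and shrinks differences at low intensity. The deposited probe set values were close to equal but not identical in distribution, with array medians of 6.467 to 6.483 on the log2 scale.

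Values were turned to log2 without a pseudocount. Probe sets were named by the platform annotation, updated through a GRCm38.p6 gene table (20351 matched, 0 symbols changed). After removing 64 control probe sets, 20380 had 1 symbol, 691 several and 1555 none. Each of 12393 genes was represented by its probe set with the highest mean. limma 3.58.1 in R 4.3.3 (lmFit, eBayes) was fitted with group as the sole term and checked on simulated data. Adjusted p-values are Benjamini-Hochberg over all genes, two-sided, called under 0.05. A second fit covered all 22626 probe sets. The number of arrays limits the precision.

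Members and lists were chosen with earlier results of these data known. Named genes are all members, Yy1, called list genes (up to 4 per list), 5 further measured receptor and enzyme genes, and the 3 closest profiles to Nmb and Nucb2. Neighbouring genes and the remaining list genes given with values were chosen after values were seen. Alternatives changed 1 choice at a time: the mean over probe sets, leaving out dim genes, quantile normalization, median centring, a pseudocount of 16, array weights, a block for the replicate number, eBayes with its trend and robust settings, all probe sets with 1 symbol, and leaving out each array.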

Additional observations from a re-analysis of the deposited data

How the results depend on the processing

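Of the 15 alternatives, Nucb2 was called in 13 and Nmb in the 14 other than the omission of dim genes, which Nmb passes only through its YY1bKO arrays. Both kept a positive log2 fold change throughout (1.74 to 2.08 for Nmb and 0.51 to 0.65 for Nucb2). The count of members called higher was 1 to 2 when 1 array was left out and 2 under every other alternative. The count called lower, 1 as reported, was 0 when dim genes were left out, which removes Npr1 from the test, 3 with array weights and 0 to 2 when 1 array was left out. Whether the replicate numbers pair the arrays is not known. Deviations from group means correlated at -0.25, 0.11 and 0.26 between arrays of the same number. Of the 3 YY1bKO arrays, 1 correlated best with its own number, and so few values cannot decide the matter. A block for the replicate number changed the SE of Npr3 from 0.21 to 0.11 and that of Npr1 from 0.12 to 0.14. With the replicate number as a block, 0 members were called lower (Npr1 adjusted p = 0.104), and Nucb2 stayed called (adjusted p = 0.0392). Npr1, Npr3 and Adm were the 3 members lower at an unadjusted p under 0.05 in that fit, a threshold at which all genes were not counted. After adjustment by limma, Npr3 and Adm stood at 0.0701 and 0.0795 there. The pathway genes called lower, 5 as reported, were 8 with array weights and 3 to 7 when 1 array was left out. The cause of these moves was not tested. The share of all genes called higher, 10.2%, was 16.2% without dim genes, 5.41% with the block and 4.41% to 13.4% when 1 array was left out, and the share called lower, 8.09%, was 14.0%, 5.16% and 3.76% to 11.6%. The signs of Ednrb and Agt, called under none of their alternatives by limma, changed when 1 array was left out, and that of Agt also with array weights. Edn1, Npr1 and Agt have dim probe sets, Nmb is dim in control arrays and Adm on average in YY1bKO arrays only, so their fold changes may be understated.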
